A study of Mus musculus with 7 samples.

Results

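Haemoglobin-rich barcodes were defined as cell barcodes in which the adult globin genes Hba-a1, Hba-a2, Hbb-bs and Hbb-bt together held more than 50% of the unique molecular identifiers (UMIs, counts of distinct captured transcripts). This threshold selected 225 of the 24433 barcodes of the series (0.921%). All barcodes were searched, without a minimum number of genes, because red cells hold few kinds of transcript. The members were thus chosen by their haemoglobin share, and every contrast with the other barcodes is given as a description without a test. They were found in 4 of the 7 libraries, and 89.3% of them came from a single library.

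Red cells mature from erythroblasts, which fill their cytoplasm with haemoglobin, a protein of alpha and beta globin chains that carries haem. Transcription then shuts down, the nucleus is expelled, and the reticulocyte that remains loses its organelles and most of its RNA. Alas2, the erythroid enzyme of the first step of haem synthesis, is a standard marker of these stages, and mature red cells of the blood carry what is left of such transcripts.

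The libraries came from atypical teratoid rhabdoid tumours of Rosa26-creERT2::Smarcb1 fl/fl mice. In these mice a Cre recombinase made in all tissues from the Rosa26 locus is activated by tamoxifen (here 50 mg/kg to the pregnant dam at day 6.5 post coitum) and deletes Smarcb1, which encodes part of SWI/SNF, a chromatin remodeller; all groups share this genotype and dose. The Cre is not restricted to a cell type. The MYC subgroup had 5 libraries: replicate 1 from the basal cerebrum at 12 weeks of age, replicates 2 and 3 from the trigeminal nerve and lateral cerebellum at 19 weeks, replicate 4 from the trigeminal nerve at 21 weeks and replicate 5 from the basal cerebrum at 27 weeks. Replicates 2 and 3 share an animal number in their titles and were taken as 1 animal. The SHH subgroup had 2 libraries from the striatum and subventricular zone, replicate 1 at 14 weeks and replicate 2 at 16 weeks. Red cells were lysed with ACK buffer before live cells, negative for the dye 7-AAD, were sorted and loaded on a 10x Chromium 3' end assay, so the number of red cells captured need not follow their number in the tumour.

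Libraries held 214 to 15282 barcodes and 2150925 to 111985990 UMIs. The 24433 barcodes in the files compare with 24199 cells that the series' description gives after quality filtering, and which barcodes that filter removed is not given in the sources used here. Of the 225 haemoglobin-rich barcodes, 6 carried a barcode sequence also found in another library. MYC replicate 2 stood apart from the rest in its haemoglobin-rich barcodes and in the granulocyte genes of its other barcodes, where the neutrophil list (S100a8, S100a9, Camp, Ngp, Ltf, Retnlg) held 149776 counts per 1000000 UMIs other than haemoglobin (CPM) against 0 to 5522 in the other 6 libraries.

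Short stretches before the start of 3 genes are shown because the values below turn on the genes they belong to: an alpha globin, the main beta globin and the haem enzyme. Each is the part of the 120 bases before the RefSeq start that lies in no exon of the GENCODE vM21 annotation (RefSeq sequence, build GRCm38.p6), written 5′ to 3′ on the gene's strand. Capitals mark the motifs searched, on both strands: the CACCC box, the CCAAT box, the TATAA box and the GATAA core.
Hba-a2 (chr11:32296372-32296488, plus strand): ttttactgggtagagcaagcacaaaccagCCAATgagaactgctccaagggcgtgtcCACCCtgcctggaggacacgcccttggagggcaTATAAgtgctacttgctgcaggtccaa
Hbb-bs (chr7:103827929-103828011, minus strand): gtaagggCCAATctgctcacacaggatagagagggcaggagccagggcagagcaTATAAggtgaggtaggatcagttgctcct
Alas2 (chrX:150547297-150547374, plus strand): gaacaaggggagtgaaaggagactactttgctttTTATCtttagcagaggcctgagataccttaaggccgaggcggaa
The globin stretches each held CCAAT and TATAA, with TATAA starting 30 bases before the start in Hba-a2 and 29 bases before it in Hbb-bs. In the same stretch of all 32851 promoters of the table, TATAA was found in 11.7% for the Hba-a2 window and 8.93% for the Hbb-bs window, and CCAAT in 21.0% and 16.0%. CACCC, a motif of erythroid Krüppel-like factors, occurred in the Hba-a2 stretch, as in 31.1% of promoters. The Hbb-bs stretch began 83 bases before the start, so bases further out were not searched for it there. The Alas2 stretch ended 43 bases before the start, so the positions where TATAA lay in the globin genes were not searched. Within its bounds the Alas2 stretch held neither CCAAT nor TATAA. It had GATAA on the opposite strand (read here as TTATC), the core bound by GATA factors, as did 7.12% of promoters in that window. A match is only a match of letters.

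The alpha genes lie on chromosome 11 (Hba-a1 at 32283511 to 32284465 and Hba-a2 at 32296489 to 32297298, both plus strand). The beta genes lie on chromosome 7, minus strand (Hbb-bs at 103826534 to 103828096 and Hbb-bt at 103812524 to 103813996). All 4 are protein-coding in GENCODE vM21. The annotated transcripts of the alpha genes overlap over 538 bases and differ there at 1 of them, C416T (Hba-a1 base first, counted from 1 at the 5′ end of the Hba-a2 transcript, the third base of codon 127). The 29 bases around it are shown because a read can be told apart there, with the differing base in capitals.
Hba-a1: catgcctctctggaCaaattccttgcctc
Hba-a2: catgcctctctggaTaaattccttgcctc
The Hba-a2 transcript also runs 16 bases further at its 3′ end and the Hba-a1 transcript 161 bases further at its 5′ end. How the deposited counts assigned reads to such near-identical copies is not given in the sources used here, so the split between Hba-a1 and Hba-a2 is uncertain, while their sum is not affected. Hbb-bs and Hbb-bt, 93.6% identical over 609 aligned bases, are less easily confused.

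MYC replicate 2 held 201 haemoglobin-rich barcodes among 637 (31.6%, exact 95% interval 28.0 to 35.3). MYC replicate 3 held 15 of 214 (7.01%, 3.98 to 11.3) and MYC replicate 1 held 7 of 361 (1.94%, 0.783 to 3.95). SHH replicate 1 held 2 of 3864 (0.0518%, 0.00627 to 0.187). None was found in MYC replicate 4 (0 of 2271, which allows up to 0.132%), in MYC replicate 5 (0 of 15282, up to 0.0196%) or in SHH replicate 2 (0 of 1804, up to 0.166%). Intervals and limits here and below cover counting error only.

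By animal, the share was 6.83% ± 12.4 (SD, n = 4) in the MYC subgroup and 0.0259% ± 0.0366 (SD, n = 2) in the SHH subgroup. The difference of 6.80 percentage points was smaller than the spread between MYC animals, and an exact two-sided permutation test over the 6 animals gave p = 0.733, where the smallest p that 15 regroupings allow is 0.0667. The groups overlapped: 1 SHH animal lay above 2 of the MYC animals, which had none. Tumour site also differs between the subgroups and cannot be told apart from them. By the same exact test, the difference without MYC replicate 2 was 2.21 points (p = 0.733), and with 200 or more genes required it was 0.840 points (p = 1). The number of genes set that fall, because 203 of the 225 barcodes had fewer than 200 genes.

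**Figure D1:**
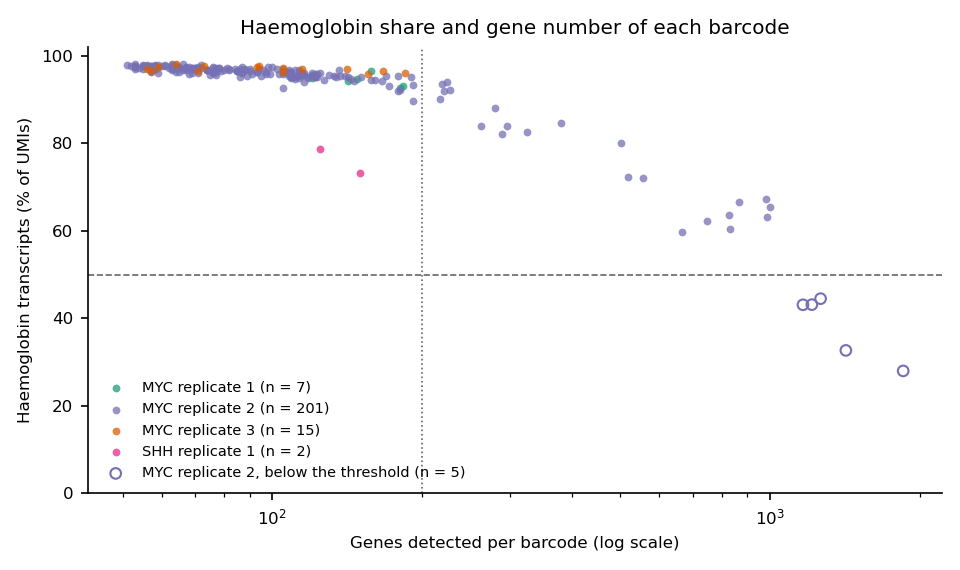
Haemoglobin share of UMIs against genes detected (log scale) for each haemoglobin-rich barcode (filled, coloured by library) and for the 5 barcodes of MYC replicate 2 between 20 and 50% (open); the dashed line marks 50% and the dotted line 200 genes. Most points sit above 90% with under 200 genes, while 22 barcodes of MYC replicate 2 run down towards 59.7% as their gene number rises to 1000.

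The haemoglobin-rich barcodes had fewer UMIs and far fewer genes than the other barcodes of their libraries, by medians. Those of MYC replicate 2 had a median of 4063 UMIs (1948 to 8611) and 88 genes (51 to 1000), against 5986.5 UMIs and 1646 genes in its other barcodes. MYC replicate 1 had medians of 3713 UMIs and 148 genes, and MYC replicate 3 of 4916 UMIs and 94 genes. The pair in SHH replicate 1 had 756 and 766 UMIs, with 150 and 125 genes. The median haemoglobin share was 94.8%, 96.4% and 97.0% in MYC replicates 1, 2 and 3, and the SHH pair stood at 73.3% and 78.6%.

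Few barcodes lay near the threshold. The lowest members, all in MYC replicate 2, had 59.7%, 60.3% and 62.2% haemoglobin. Just outside, 5 barcodes of MYC replicate 2 held 44.5%, 43.1%, 43.1%, 32.7% and 28.0%, and the next in that library held 0.536%. In SHH replicate 1 the highest barcode outside held 11.1%. In MYC replicates 1 and 3 the highest outside held 4.57% and 0.208%.

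Haemoglobin transcripts also appeared in barcodes of other cells. At least 1 such UMI was found in 99.1% of the other barcodes of MYC replicate 2 (432 of 436), 82.9% of those of MYC replicate 3 and 71.5% of those of MYC replicate 1. It was found in 0.984% of those of SHH replicate 1, and in 0.308% and 0.151% of those of MYC replicates 4 and 5. SHH replicate 2 had none. The 3 libraries with 7 or more haemoglobin-rich barcodes were therefore also those where haemoglobin UMIs reached most other barcodes.

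Adult beta globin made up 61.4% of haemoglobin UMIs in the haemoglobin-rich barcodes of MYC replicate 2 (exact 95% interval 61.3 to 61.5; SD between barcodes 4.64, n = 201). It made up 50.9% in MYC replicate 1 (SD 3.96, n = 7) and 51.2% in MYC replicate 3 (SD 5.45, n = 15), so these sums lay about 10 points lower than that of MYC replicate 2. MYC replicates 2 and 3 are tumours of the same animal. Single barcodes overlapped: MYC replicate 1 ranged from 45.4 to 58.3%, MYC replicate 2 from 47.2 to 70.3%, and MYC replicate 3 from 40.9 to 61.3%. The SHH pair summed to 71.5%.

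Hbb-bt, the minor adult beta gene, gave 15.5% of beta UMIs in MYC replicate 1, 10.4% in MYC replicate 2, 13.2% in MYC replicate 3 and 5.08% in SHH replicate 1. Barcodes of MYC replicate 2 with 120 to 199 genes, close to the 120 to 183 genes of MYC replicate 1, stood at 9.92% Hbb-bt and 63.0% beta, so the libraries also differed at like gene numbers. Hba-a2 gave 43.6%, 40.9%, 42.1% and 43.5% of alpha UMIs in the same order, a narrow range. No animal of the SHH subgroup had 5 haemoglobin-rich barcodes, so the ratios were not tested between subgroups.

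In the other barcodes (those under 5% haemoglobin), beta made up more of the few haemoglobin UMIs than in the haemoglobin-rich barcodes of the same MYC library: 61.0% of 875 UMIs in MYC replicate 1, 76.2% of 3603 in MYC replicate 2 and 72.7% of 528 in MYC replicate 3. Hbb-bt gave 5.62%, 6.12% and 5.21% of their beta UMIs, lower than in the haemoglobin-rich barcodes beside them. In SHH replicate 1 the corresponding values were 76.1% beta and 4.48% Hbb-bt, on 88 UMIs. Their intervals cover the values of the haemoglobin-rich pair. Single barcodes weighed on some of these sums. In MYC replicate 1, 1 barcode at 4.57% haemoglobin held 215 of the 875 UMIs. In SHH replicate 1, 1 barcode at 4.13% held 52 of the 88. The shares without these barcodes were not computed. For the Hba-a2 share of alpha UMIs, the other barcodes of MYC replicate 1 gave 41.9% (36.6 to 47.4) and those of MYC replicate 3 gave 41.7% (33.5 to 50.2), intervals that cover the values of the haemoglobin-rich barcodes, and 45.2% (41.8 to 48.6) in MYC replicate 2, above its 40.9%. In the 3 MYC libraries the summed beta and Hbb-bt shares thus differed between the 2 kinds of barcode. The Hba-a2 share differed beyond counting error in MYC replicate 2 alone.

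**Figure D2:**
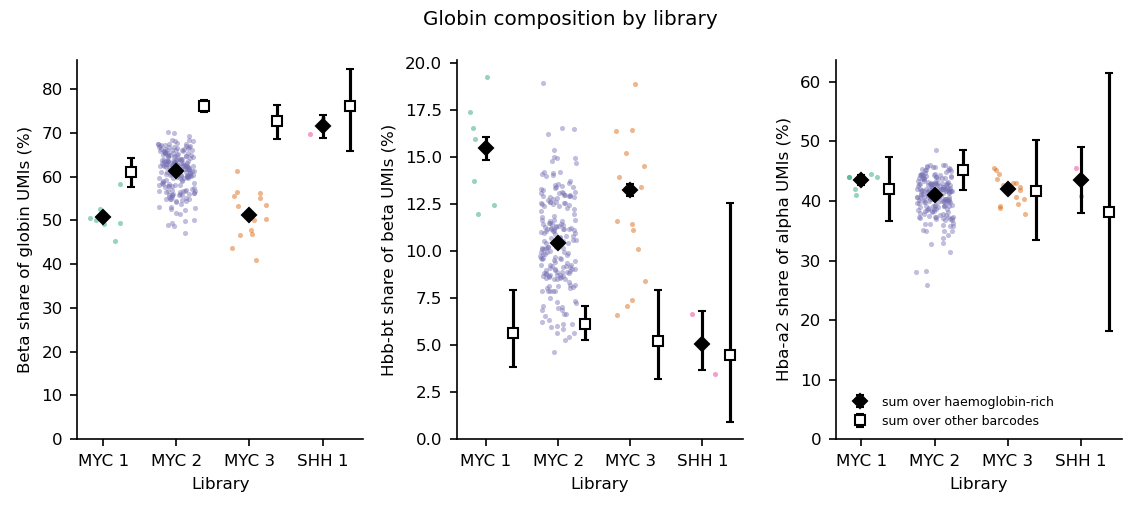
Beta share of the 4 haemoglobin genes' UMIs, Hbb-bt share of beta UMIs and Hba-a2 share of alpha UMIs (percent) in each haemoglobin-rich barcode (small points), in their sum (black diamonds) and in the sum over other barcodes of the library (white squares), with exact 95% counting intervals. Beta shares of the sums are 50.9, 61.4 and 51.2% in MYC replicates 1 to 3, each below the white square of its library.

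Embryonic globin genes gave a small further signal. Hbb-bh1, an embryonic beta-like gene, had 50 UMIs in 7 of 7 barcodes of MYC replicate 1, 199 in 122 of 201 of MYC replicate 2, 45 in 14 of 15 of MYC replicate 3, and 0 in the SHH pair. Per 10000 adult beta UMIs this was 38.3 (28.4 to 50.4), 3.98 (3.45 to 4.58) and 12.0 (8.72 to 16.0), intervals that do not overlap. Hbb-y, another embryonic beta-like gene, followed the same order, with 6.12, 0.460 and 2.13 per 10000. Hba-x, the embryonic alpha-like gene, had 38 UMIs in MYC replicate 2, 9 in MYC replicate 3 and 0 in MYC replicate 1. These genes share sequence with the adult globins (Hbb-bh1 and Hbb-bs were 75.2% identical over 460 aligned bases), so whether these UMIs come from embryonic transcripts is uncertain.

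Outside haemoglobin, the haemoglobin-rich barcodes held 1440 UMIs in MYC replicate 1, 52241 in MYC replicate 2, 2379 in MYC replicate 3 and 366 in SHH replicate 1. Levels below are CPM of these other UMIs. The 10 most abundant genes, leaving out mitochondrial and ribosomal protein genes, included Alas2, Gpx1, Bpgm, Ubb, Mkrn1, Ube2l6, Ftl1, Oaz1 and Bnip3l, and the 10 held 21.6% of the other UMIs of the 3 MYC libraries. Of the 10, 8 are in the red cell lists, and the exceptions are the polyubiquitin gene Ubb and Oaz1, which restrains polyamine synthesis. All 10 were among the transcripts of each of the 3 libraries.

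Alas2 led the list. It had 55 UMIs in MYC replicate 1 (2 to 11 per barcode, median 9), 2086 in MYC replicate 2 (0 to 22, median 10), 170 in MYC replicate 3 (3 to 21, median 11) and 5 in the SHH pair (2 and 3). At least 1 Alas2 UMI was present in 7 of 7, 200 of 201, 15 of 15 and 2 of 2 barcodes, at median depths of 204, 147, 133 and 183 other UMIs. The background share in barcodes under 5% haemoglobin was 0.847%, 2.32%, 1.01% and 0.0259%, at median depths of 2282 to 8448 other UMIs. Thinned to 60 other UMIs per barcode, with no barcode left out, the shares were 88.9%, 91.5%, 99.0% and 62.7%. The marker therefore bore out the erythroid label in all 4 libraries.

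The level of Alas2 was 38194 CPM in MYC replicate 1 (95% counting interval 28773 to 49715), 39930 in MYC replicate 2 (38235 to 41682) and 71459 in MYC replicate 3 (61120 to 83045). Neither MYC replicate 1 nor MYC replicate 3 had a barcode with 200 or more genes. Barcodes of MYC replicate 2 with under 200 genes stood at 64431 CPM, within the interval of MYC replicate 3. Those with 120 to 199 genes stood at 43546, within the interval of MYC replicate 1.

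**Figure D3:**
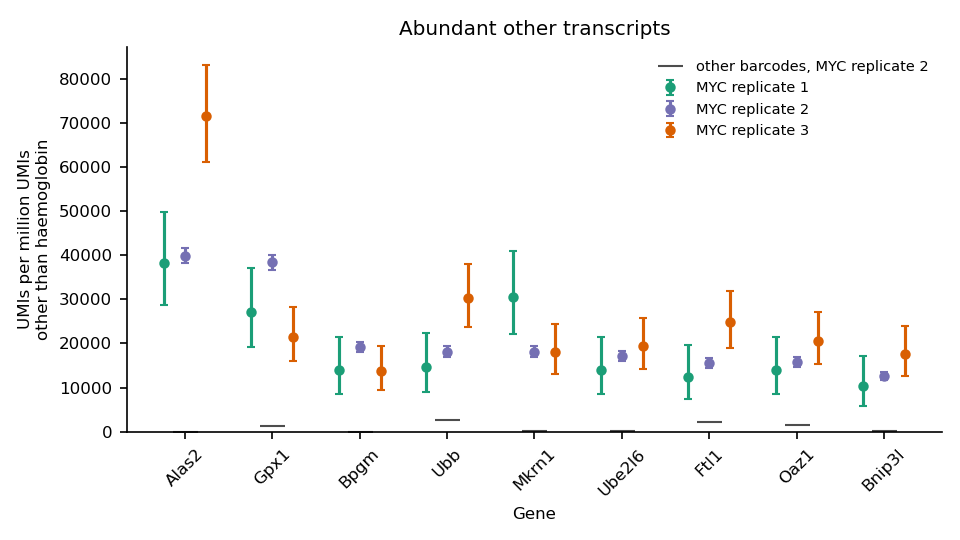
Level, in CPM of UMIs other than haemoglobin, of 9 of the most abundant other genes in the haemoglobin-rich barcodes of MYC replicates 1, 2 and 3, with 95% counting intervals; grey dashes mark the other barcodes of MYC replicate 2. Alas2 stands at 38194, 39930 and 71459, and all 9 genes lie above the dash in all 3 libraries.

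The 15 largest ratios to the other barcodes of the same libraries, on the log2(level + 10 CPM) scale and among genes with 20 or more UMIs, included those of Alas2 (11.28), Bpgm (9.42), Hbb-bh1 (9.01), Csmd2 (8.01) and Fech (7.65). Ube2l6, Fam220a, Rec114, Mkrn1, Fam213a, Fam46c, Epb41 and Slc4a1 were also among them, and 10 of the 15 are in the red cell lists. Csmd2, a large adhesion gene outside those lists, had 9, 161 and 11 UMIs in MYC replicates 1, 2 and 3, so it was seen in all 3. Rec114, known for its part in meiotic recombination, had 104 UMIs in 65 barcodes of MYC replicate 2 and 4 UMIs in MYC replicate 3. In these ratios the other barcodes were all those at or below the threshold, including the 5 at 20 to 50% haemoglobin.

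In MYC replicate 2 the haemoglobin-rich barcodes were set beside all 436 others, including the 5 at 20 to 50% haemoglobin. Of the 381 genes with 20 or more UMIs, 135 (35.4%) were 8-fold or more higher in the haemoglobin-rich barcodes. By the red cell lists this held for 5 of 5 such genes of haem synthesis, 2 of 4 of iron handling, 8 of 8 of the membrane and its skeleton, 7 of 7 of red cell metabolism, 10 of 10 of clearance and remodelling, 5 of 5 other globins, 2 of 3 erythroid regulators and 0 of 2 of early progenitor and cycling genes. The other 51 of the 95 listed genes had fewer than 20 UMIs and entered none of these counts. The haemoglobin share that chose the barcodes uses the same contrast, so nothing is read from these counts.

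In haem synthesis, the first and last enzymes dominated. Fech, which inserts iron into the ring, had 16, 377, 32 and 0 UMIs in MYC replicates 1, 2 and 3 and SHH replicate 1. Of the enzymes between them, Alad, Uros, Urod, Cpox and Ppox each had 0 UMIs in MYC replicates 1 and 3 and in the SHH pair. In MYC replicate 2 these had 9 (Uros) to 57 (Urod) UMIs, and 52 of the 57 Urod UMIs were in the 22 barcodes with 200 or more genes. At 1440, 2379 and 366 other UMIs in all, a gene at the level of Urod in MYC replicate 2 (1091 CPM) would give few UMIs in the other libraries, and each file lists only genes seen in at least 3 of its barcodes.

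Among genes of iron handling, the ferritin genes Ftl1 and Fth1, which store iron, were the most abundant, with 814 and 473 UMIs in MYC replicate 2, against 18 and 10 UMIs in replicate 1 of that subgroup, 59 and 22 in replicate 3, and 5 and 6 in the SHH pair. Both are also transcribed in the other barcodes, at 2309 and 2796 CPM in MYC replicate 2. Tfrc, the transferrin receptor that reticulocytes shed as they mature, had 18 UMIs in 11 barcodes of MYC replicate 2, all with 200 or more genes. Slc25a37, the mitochondrial iron importer, had 68 UMIs in 33 barcodes there.

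Of red cell metabolism, Gpx1, a glutathione peroxidase, had 39, 2004, 51 and 0 UMIs in MYC replicates 1, 2 and 3 and SHH replicate 1. Bpgm, which makes the 2,3-bisphosphoglycerate that lowers the oxygen affinity of haemoglobin, had 20, 1001, 33 and 5. Both were among the most abundant transcripts of the MYC libraries. Car1, a carbonic anhydrase of red cells, had 0 UMIs in the 201 haemoglobin-rich barcodes of MYC replicate 2 but 52 in the 5 barcodes below the threshold, in 5 of 5 of them. Car2, its relative, had 585 UMIs in 55 barcodes of MYC replicate 2, 488 of them in those with 200 or more genes.

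Genes of clearance and remodelling, which remove organelles and proteins from maturing red cells, were seen in all 4 libraries. Mkrn1 and Ube2l6, of the ubiquitin system, had 44 and 20 UMIs in the first of the MYC libraries, 947 and 896 in replicate 2, 43 and 46 in replicate 3, and 17 and 8 in the SHH pair. Bnip3l, the receptor by which mitochondria are cleared, had 15, 660, 42 and 4. Summed over the 15 genes of the list, the level was 65972 CPM in MYC replicate 1, 64834 in MYC replicate 2, 66835 in MYC replicate 3 and 92896 in SHH replicate 1, the last on 34 UMIs.

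Other UMIs numbered 1440, 2379 and 366 in MYC replicates 1 and 3 and SHH replicate 1, against 52241 in MYC replicate 2. At these depths, membrane and skeleton genes were seen mainly in MYC replicate 2. Slc4a1, the band 3 anion exchanger, had 69 UMIs in 23 of 201 barcodes there (11.4%, exact interval 7.39 to 16.7) and 0 in the 7 barcodes of MYC replicate 1, the 15 of MYC replicate 3 and the SHH pair. A count of 0 allows up to 2083 CPM in MYC replicate 1 and 1261 CPM in MYC replicate 3. The level in MYC replicate 2 was 1321 CPM, so no difference from MYC replicate 1 was detectable at this depth. Most barcodes with Slc4a1 in MYC replicate 2 had 200 or more genes, a class that MYC replicates 1 and 3 lacked. Nothing is therefore read from the 0 in MYC replicate 3. Slc4a1 was at 0 in the 431 barcodes of MYC replicate 2 under 5% haemoglobin. Rhd, of the Rh blood group complex, had 68 UMIs in 20 haemoglobin-rich barcodes, again all in MYC replicate 2. Epb41, protein 4.1 of the skeleton, was seen in 79 barcodes of MYC replicate 2, 6 of MYC replicate 3 and 1 of MYC replicate 1.

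The 201 barcodes of MYC replicate 2 differed among themselves in gene number, and only this library had any with 200 or more genes (22 of 201, against 0 of 24 elsewhere). This cut and the gene-number classes below were chosen after seeing the data. The 22 barcodes held 467 to 2604 other UMIs and 59.7 to 93.95% haemoglobin, while the 179 with fewer genes held 63 to 438 other UMIs and 89.6 to 98.2% haemoglobin. Of 381 genes with 20 or more UMIs over both classes, 61 (16.0%) were 8-fold or more higher in CPM in the gene-rich class and 180 (47.2%) were lower there. A gene could pass this filter through 1 class alone, and 17 of the 381 had 0 UMIs in the gene-poor class. Their difference follows in part from the filter, so it is not read as support. All are barcodes of 1 library, so no test was made.

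Erythroid regulators were higher in CPM in the gene-rich class, at 7164 CPM against 534 (13.4-fold, 95% counting interval 7.91 to 24.5). The list had a UMI in 17 of the 22 gene-rich barcodes and in 12 of the 179 others. Hemgn, a nuclear protein of erythroblasts, had 54 of its 60 UMIs in the gene-rich class, Lmo2, a bridging protein of the erythroid transcription complex, 38 of 44, Klf1, the erythroid Krüppel-like activator, 24 of 24, and Gata1, the master regulator, 8 of 8. With a gene at 0 set to its 3-count floor, 2 of the 3 regulators with 20 or more UMIs were 8-fold or more higher. Over all 381 genes this held for 61 (16.0%). Klf1, at 0 in the gene-poor class, passed the filter of 20 UMIs through the gene-rich class alone. As a share of all UMIs the list was also higher there, by 6.28 on the log2 scale.

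The early progenitor and cycling list stood at 3892 CPM in the gene-rich class and 249 in the other (15.6-fold, 7.29 to 39.9). It had a UMI in 10 of the 22 gene-rich barcodes. Mki67, a proliferation marker, had 25 UMIs in 8 barcodes, all of the gene-rich class, and Birc5, of the mitotic spindle, had 30 of 31 UMIs there. The stem and progenitor genes Kit, Gata2 and Cd34 were at 0 in all 225 haemoglobin-rich barcodes, which allows up to 3 UMIs in 52241 for each in MYC replicate 2. Myb had 1 UMI.

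Membrane and skeleton genes stood at 24473 CPM in the gene-rich class and 6265 in the other (3.91-fold, 3.30 to 4.65). Of the 8 with 20 or more UMIs, 7 were higher and 5 were 8-fold or more higher. Over all 381 genes, 201 were higher and 61 (16.0%) were 8-fold or more higher. The median log2 difference was 3.09 for the 8 genes and 0.07 over all 381. Of the 8, 3 had 0 UMIs in the gene-poor class and passed the filter through the gene-rich class alone. Slc4a1 was present in 17 of 22 gene-rich barcodes and in 6 of 179 others. Aqp1, a water channel of the red cell membrane, had all of its 48 UMIs in 13 gene-rich barcodes. Epb41 alone of the 8 went the other way, with 3204 CPM in the gene-poor class and 621 in the gene-rich.

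Summed over their genes, the other 5 lists were lower in CPM in the gene-rich class, but their single genes did not all go that way. Over all 381 genes, 180 (47.2%) were lower and 61 (16.0%) were 8-fold or more higher. The counts of lower genes in red cell metabolism and iron handling lay near that share, so nothing is read from them. Clearance and remodelling stood at 24514 against 99494 (4.06-fold lower, 3.71 to 4.44), and 7 of its 10 genes with 20 or more UMIs were lower, with a median log2 difference of -1.78. Haem synthesis stood at 25426 against 75146 (2.96-fold lower), with Alas2 at 11429 against 64431. Of its 5 genes with 20 or more UMIs, however, 3 were 8-fold or more higher, Alad and Urod among them. The median log2 difference was 3.52, opposite in sign to the sum. Of these 5 genes, 1 had 0 UMIs in the gene-poor class. Red cell metabolism stood at 71514 against 128222 (1.79-fold lower), with 4 of 7 genes lower and a median of -1.13. Iron handling stood at 21657 against 35882 (1.66-fold lower), with 2 of 4 genes lower and a median of 0.05. The other globins stood at 2195 against 10252 (4.67-fold lower), with 4 of 5 genes lower and a median of -3.03. Per 10000 adult globin UMIs of the same chain, however, Hbb-bh1 was level, at 4.01 against 3.98. On that measure Hbq1b was higher, at 6.67 against 0.781, and the counting intervals of the other genes of the list overlapped.

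These differences are in shares of a total that itself differed. As a share of all UMIs, haemoglobin included, 4 of these 5 lists were higher in the gene-rich class beyond their counting intervals, by 0.51 (clearance and remodelling), 0.97 (haem synthesis), 1.69 (red cell metabolism) and 1.80 (iron handling) on the log2 scale. The other globins differed by 0.31, with an interval of -0.14 to 0.74 that covers 0. In UMIs per barcode, Alas2 was nearly level, with a median of 12.5 (6 to 21) in the gene-rich class and 10 (0 to 22) in the other. Clearance and remodelling genes had a median of 26.5 UMIs (7 to 59) and 14 (0 to 42), ranges that overlap. Regulators had a median of 4.5 UMIs (0 to 27) against 0 (0 to 3).

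**Figure D4:**
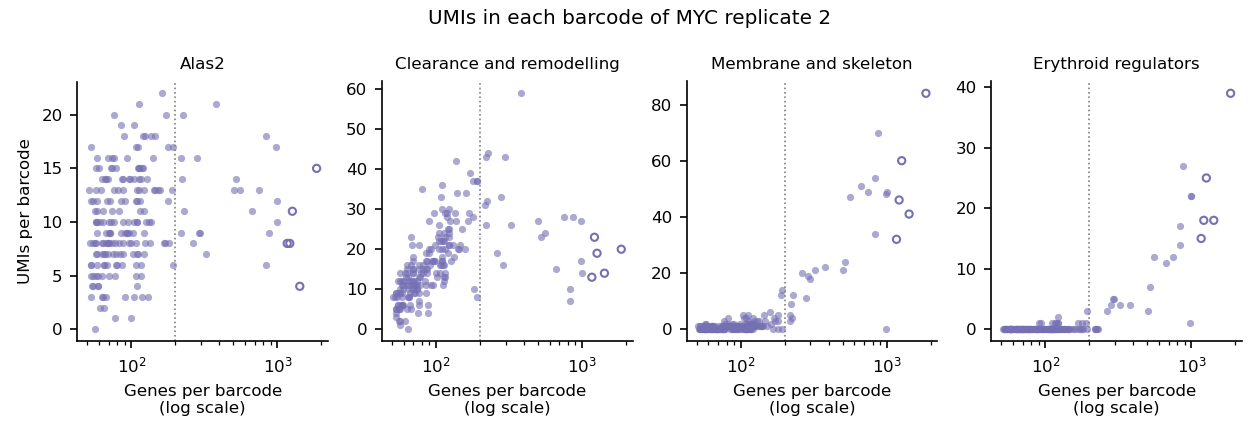
UMIs per barcode of Alas2 and of 3 gene lists against genes per barcode (log scale) in MYC replicate 2, for haemoglobin-rich barcodes (filled) and the 5 barcodes at 20 to 50% haemoglobin (open); the dotted line marks 200 genes. Alas2 stays between 0 and 22 UMIs throughout, while membrane and regulator UMIs are at most 14 and 3 below 200 genes and reach 70 and 27 in the gene-rich members.

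The change in CPM along gene number was graded for some lists within the gene-poor class. Alas2 fell from 93756 CPM in barcodes with 51 to 69 genes to 85158, 54934 and 43546 in those with 70 to 89, 90 to 118 and 120 to 192 genes. Red cell metabolism went the other way over these classes, from 93756 to 104826, 142990 and 148774. Membrane and skeleton genes stood at 3361 in the first class and 9515 in the last, with counting intervals that do not overlap. Clearance and remodelling genes held at 104723, 105434 and 103569 in the first 3 and 88996 in the last. These levels are shares of a total that grew, with medians of 86, 122, 193 and 276 other UMIs per barcode over the classes. In mean UMIs per barcode, Alas2 was not lower in the last class than in the first.

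**Figure D5:**
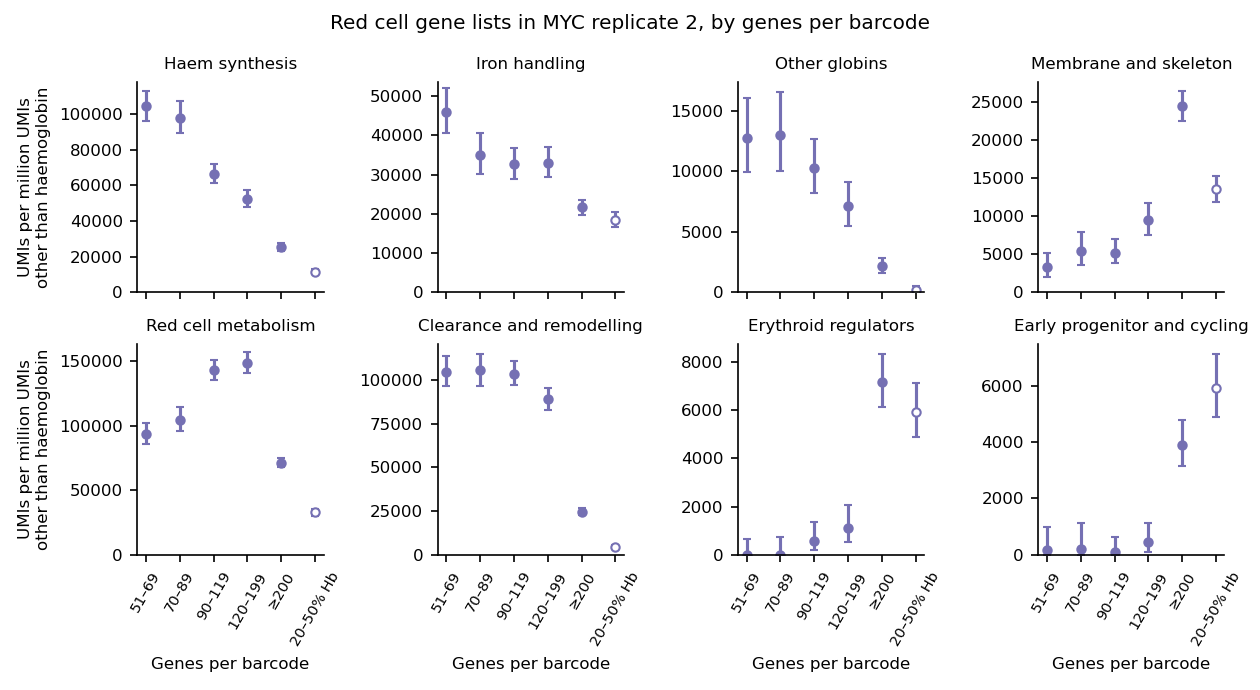
Summed level of 8 red cell gene lists (CPM of UMIs other than haemoglobin, 95% counting intervals, linear axes starting at 0) in MYC replicate 2 by genes per barcode, and in the 5 barcodes at 20 to 50% haemoglobin (open). Haem synthesis runs from 104192 down to 25426 across the filled points. Membrane genes run from 3361 up to 24473 and regulators from 0 to 7164. Levels are shares of a total of other UMIs per barcode that grew with gene number.

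The 5 barcodes of MYC replicate 2 just below the threshold each carried UMIs of the regulator and membrane lists. They had 1166 to 1854 genes, 15 to 39 UMIs of erythroid regulators, 32 to 84 of membrane and skeleton genes, 13 to 36 of early progenitor and cycling genes and 4 to 15 of Alas2. Clearance and remodelling genes had 13 to 23 UMIs per barcode, at 4588 CPM against 24514 in the gene-rich members. Hbb-bh1, Hbb-y and Hba-x were at 0. For Hbb-bh1 this allows up to 5.16 per 10000 adult beta UMIs, which covers the 3.98 of the haemoglobin-rich barcodes. No difference was detectable at this depth.

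Hba-a2 gave 41.4% of alpha UMIs in the gene-poor class (SD between barcodes 2.64), 37.3% in the gene-rich class (SD 4.98) and 23.5% in the 5 barcodes below the threshold (17.5 to 28.7%). Across the 201 barcodes of MYC replicate 2, the share of Hba-a2 and the number of genes had a Pearson correlation of -0.53 and a Spearman correlation of -0.14, as a description of barcodes that share 1 library. Among the 179 gene-poor barcodes the values were 0.09 and 0.05. The relation therefore rests on the gene-rich barcodes. The uncertainty of the alpha split stated above applies to it.

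Markers of other cell types gave few UMIs in the haemoglobin-rich barcodes, apart from granulocyte genes in MYC replicate 2, although with so few other UMIs some lists reached the level of the other barcodes. In MYC replicate 2 the neutrophil list had 1197 UMIs in 201 of 201 barcodes (22913 CPM, against 149776 in the barcodes under 5% haemoglobin) and S100a8 was present in 181. Camp and Ngp stood at 29.96 and 29.13 UMIs per 100 of S100a8 in the haemoglobin-rich barcodes and at 30.9 and 32.3 in the others, but S100a9 at 76.7 and 54.7. The neutrophil list was lower in CPM in the gene-rich class (7992) than in the gene-poor class (35740). In UMIs per barcode it was not lower there, with a median of 6 (1 to 64) against 5 (1 to 16). In MYC replicates 1 and 3 the list had 1 and 3 UMIs, and in the SHH pair 0.

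Of the other lists in MYC replicate 2, macrophage and microglial genes had 111 UMIs in 19 of 201 barcodes (2125 CPM, against 2165) and pan-leukocyte genes 32. By gene, the pan-leukocyte levels were 38.3 to 268 CPM, against 78.4 to 878 in the barcodes under 5% haemoglobin. Tumour genes of the MYC subgroup had 7 UMIs, T cell and platelet genes 2 each, endothelial genes 1, and B cell and neural genes 0. In MYC replicate 1 the MYC tumour list had 3 UMIs (2083 CPM, against 2113 in the barcodes under 5% haemoglobin), macrophage genes 2 (1389 against 2674), and the T cell, platelet, endothelial and pan-leukocyte lists 1 each (694 CPM). MYC replicate 3 had 6 macrophage UMIs (2522 CPM against 2631) and 1 of the MYC tumour list (420.3 against 2310), and the SHH pair had 3 macrophage UMIs (8197 CPM against 24328). The other lists were at 0 in these libraries. A gene-rich barcode held 91 of the 111 macrophage UMIs, with 11 pan-leukocyte UMIs, 17 of Alas2 and 0 of membrane and skeleton genes at 981 genes and 67.2% haemoglobin. The next highest barcode had 2 macrophage UMIs. Another barcode, with 221 genes, held 64 neutrophil UMIs, against 16 in the next. Doublets were neither called nor removed, and the part of a second cell or of free RNA in these barcodes was not tested. Without the macrophage-rich barcode the gene-rich class was higher by 2.13 on the log2 scale in membrane genes, 3.90 in regulators and 4.13 in cycling genes, and lower by 1.90 in clearance genes (log2 difference -1.90).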

How the data were processed

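Tumour cells of 7 libraries from 6 mice were measured by 10x 3' single-cell RNA sequencing. The values are raw UMI counts per gene and barcode, deposited by the authors as 1 table a library, with Cell Ranger 2.0.2 and build mm10 named in the submitters' processing notes. The gene annotation used for counting is not given in the sources used here. Per the labels' protocols, the libraries of MYC replicate 5 and SHH replicate 1 were sequenced at 2 time points. Each file lists only genes seen in at least 3 of its barcodes, and an unlisted gene was set to 0. Library totals are 2150925 to 111985990 UMIs.

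Groups came from the labels, and replicate numbers follow accession order. MYC replicates 2 and 3 were counted as 1 animal. Animals, not barcodes, were replicates, and nothing else in the labels describes how independent they are. The share of haemoglobin-rich barcodes was compared by an exact two-sided permutation test over animals. Levels are counts per 1000000 UMIs other than those of the 4 haemoglobin genes (CPM), with exact Poisson 95% intervals, and shares have exact Clopper-Pearson intervals. Both cover counting error only. A count of 0 was given a limit of 3 counts. Fold changes used log2(level + 10 CPM) for genes with 20 or more UMIs, with 8-fold as the limit. Ratios of list levels had exact intervals. Shares with a UMI were also given after thinning to 60 other UMIs. Doublets were neither called nor removed.

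Named genes were all those of the 8 red cell lists, the 10 most abundant other genes and the 15 with the largest fold over the summed MYC libraries. Some genes that this rule names are not reported here. Cell type lists are described by their counts. Members and lists were chosen with earlier results of these data known. A count model between subgroups was planned but not fitted, since only 1 animal had 20 or more haemoglobin-rich barcodes. Promoter sequences are from RefSeq (GRCm38.p6). Transcript sequences and gene coordinates are from GENCODE vM21 (GRCm38), which had 158 of the 162 genes looked up. Python 3.11.15, numpy 2.4.6, pandas 2.3.3, scipy 1.17.1, Biopython 1.88 and matplotlib 3.10.9 were used, and the interval and ratio code was tested on simulated data.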

Additional observations from a re-analysis of the deposited data

Results flagged for a closer look

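The animal of MYC replicates 2 and 3 stood far from the other 3 MYC animals, with 25.4% haemoglobin-rich barcodes (216 of 851). Its gap to the nearest animal was 0.924 of the range, above the 95% critical value of 0.829 for 4 samples. Among the 5 MYC libraries, haemoglobin made up 0.426% of the UMIs of the other barcodes in MYC replicate 2, a gap of 0.941 of the range against a critical value of 0.710. Of its 14987 haemoglobin UMIs, 11384 came from the 5 barcodes at 20 to 50% haemoglobin. Over the 431 barcodes under 5% haemoglobin, an alternative chosen after seeing the data, the value was 0.103% and the gap 0.755 of the range. Chance singles out about 1 in 20 groups by this rule, and both values belong to the same animal.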

How the results depend on the processing

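The number of haemoglobin-rich barcodes was 229 above 30% haemoglobin and 213 above 80%, and 22 with 200 or more genes required. The MYC subgroup had the higher share under each alternative run, with a difference from 0.840 points with 200 or more genes (p = 1, exact permutation test) to 8.07 with libraries as samples (p = 0.571, where the smallest p is 0.0476; the other alternatives could not go below 0.0667, so their p-values say nothing of stability), and from 2.21 to 9.08 points with 1 library left out. The Alas2 log2 difference from other barcodes, 11.39 as the mean of 2 MYC animals, was 7.22 as a share of all UMIs, and 10.98 to 12.23 with 1 library left out. The share of barcodes with an Alas2 UMI, 99.8%, was 90.5% after thinning and 99.5 to 100% with 1 library left out. Alternatives chosen after seeing the data concerned the gene-rich class of MYC replicate 2. As a share of all UMIs, 5 lists changed sign, 4 of them beyond counting error: haem synthesis from -1.56 to 0.97, iron handling from -0.73 to 1.80, other globins from -2.22 to 0.31 (interval -0.14 to 0.74, which covers 0), red cell metabolism from -0.84 to 1.69, and clearance and remodelling from -2.02 to 0.51. That scale includes the haemoglobin UMIs, of which the gene-rich class had a smaller share. Class limits of 150 or 300 genes changed no direction. The count models between subgroups and their alternatives were not run. No paired analysis was possible because the subgroups are different animals and the labels give them no shared replicate numbers. Counts of 1440, 2379 and 366 other UMIs limit what can be seen of rarer genes outside MYC replicate 2.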
